A study of Rattus norvegicus with 20 samples.

Results

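Semaphorins, their plexin receptors and the neuropilin coreceptors were described in the hippocampus of 20 Gunn rat pups at postnatal day 6. The members were all genes of the deposited count table whose symbols carry the names of semaphorin classes 3 to 7, of plexins A to D or of Nrp1 and Nrp2, and whose mean count over the 20 libraries was at least 10. This gave 31 of 32883 listed genes: 2 neuropilins, 9 plexins and 20 semaphorins. All 31 passed the filter on low counts and were among the 15272 genes tested. Their mean counts ran between 199 for Sema3d and 9907 for Plxna1, values that are not corrected for gene length, so levels are compared between pups and not between genes.

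Every pup was of the Gunn strain, in which a defective bilirubin-conjugating enzyme leaves homozygotes jaundiced. Homozygous pups (jj) were jaundiced and heterozygous pups (written Nj or Jj) were not, so the Nj pups also carry 1 copy of the mutant allele and no wild-type strain was included. Treated pups of both genotypes received intermittent LED phototherapy between days 4 and 6, with 3 h on alternating with 3 h off to reach 12 h of light, and untreated pups received none. There were 5 treated jj, 5 treated Nj, 5 untreated jj and 5 untreated Nj pups, and 1 polyA RNA library was made from a hippocampal lobe of each.

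Semaphorins are secreted or membrane-bound guidance proteins that steer growing axons, dendrites and migrating cells. Most bind plexins, whose intracellular domain switches off small GTPases and loosens the cytoskeleton, and most class 3 semaphorins first bind a neuropilin that recruits a plexin A. In the mouse hippocampus, SEMA3F acting through NRP2 and PLXNA3 prunes mossy fibre branches, and SEMA6A with PLXNA2 and PLXNA4 sets the layer in which mossy fibres end.

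Library totals ran between 16882652 and 27112749 counts, and levels are given as counts per 1000000 counts of the scaled library total (CPM), as mean ± SD. Markers of excitatory hippocampal neurons were present in every group, with a summed level of 2034 to 2442 CPM over the 10 tested. Ttr, the main secretory product of choroid plexus, exceeded 1000 CPM in 3 treated jj, 2 treated Nj, 1 untreated jj and 1 untreated Nj library, so these 7 libraries hold choroid plexus RNA in unequal numbers across the groups. The sample titles carry prefixes of unstated meaning: all treated pups share J18, untreated jj pups have J17, and untreated Nj pups have J13, J14 or J15. Prefix and light therefore cannot be told apart, and each light comparison below is subject to this. In whole tissue, fewer cells of a type and less RNA per cell cannot be told apart either.

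Over both genotypes, 10 of the 31 members were lower in treated than in untreated pups and 0 were higher, by edgeR's quasi-likelihood test at an adjusted p under 0.05. The 10 were both neuropilins, 3 of the 4 plexins A, 3 of the 6 class 4 semaphorins and 2 of the 4 class 6 semaphorins. This share of 32.3% compares with 5.74% lower and 4.35% higher among all genes tested, and with 7.93% lower among the 10353 genes whose mean count reached that of Sema3d. The median log2 change over the 31 members was -0.05, against 0.00 over all genes, and 23 members were below 0, against 49.6% of all genes. DESeq2 also called 10 members, all of them the same genes, against 7.75% lower among the genes it tested. The changes were small, between -20.7% for Sema4c and -8.33% for Sema4g. Without the 7 Ttr-rich libraries, 3 members were called (Nrp2, Sema4c and Plxnb2), or 9.68% against 1.27% lower among all genes tested in those 13 libraries.

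**Figure D1:**
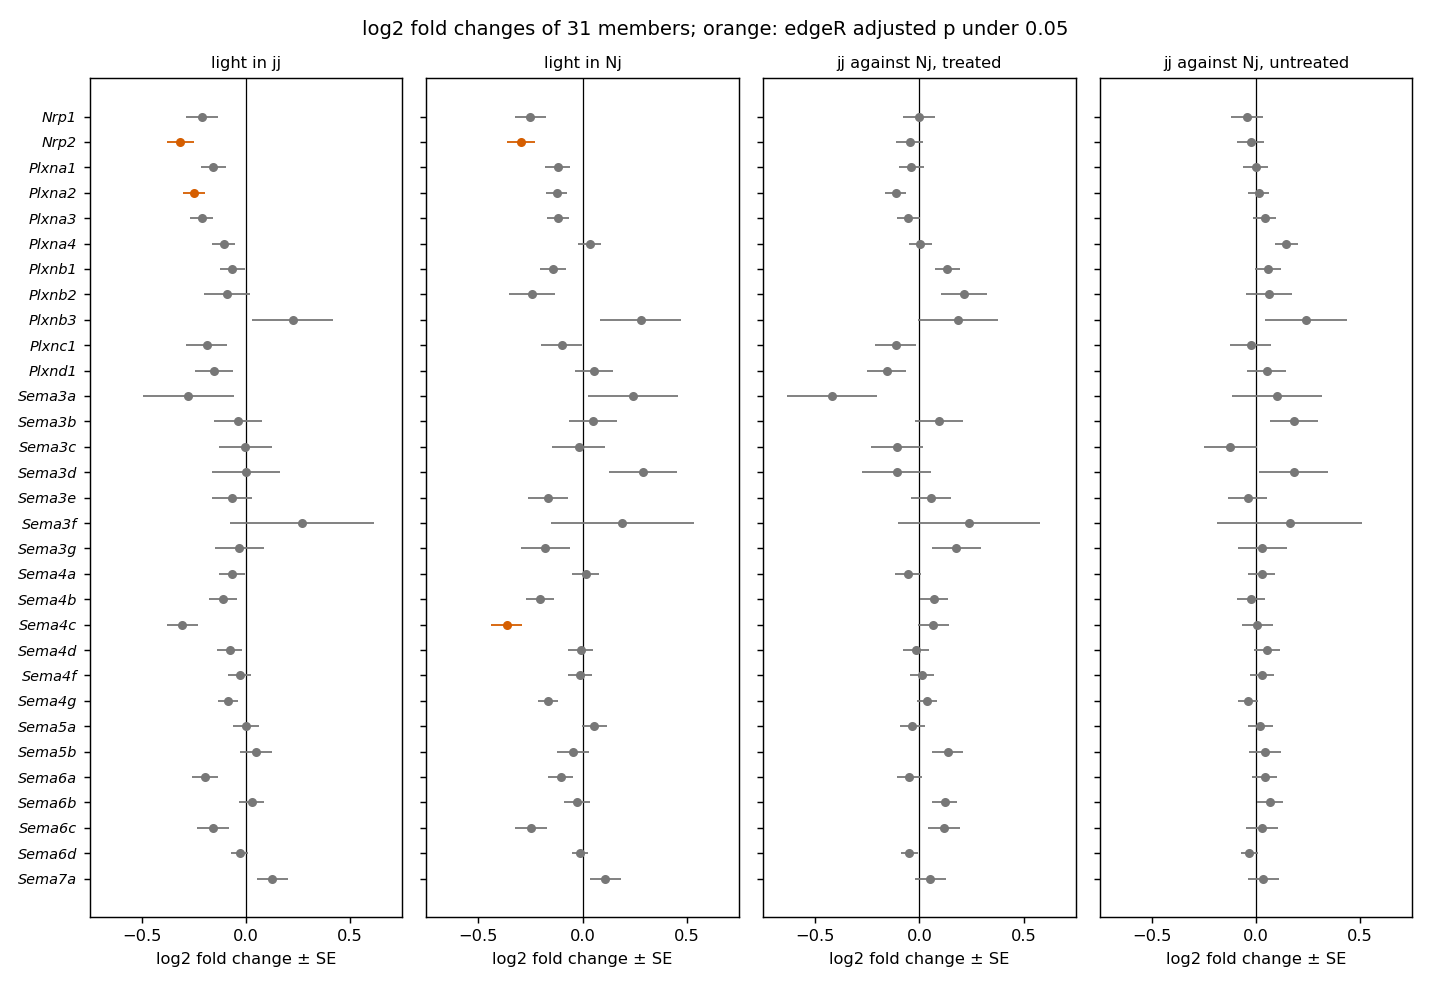
Log2 fold changes (points) with their standard errors (bars) of the 31 members, in rows by role, for light in jj pups, light in Nj pups, jj against Nj pups under light, and jj against Nj pups without light; orange points passed an adjusted p under 0.05. Orange points stand only for Nrp2 and Plxna2 in jj and for Nrp2 and Sema4c in Nj, all left of 0, and no point is orange in the genotype panels.

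The plot of fold changes by role shows the neuropilins and plexins A1 to A3 left of 0 in both light panels, while the class 3 semaphorins scatter to both sides with wide errors.

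NRP2, the coreceptor for SEMA3F, had the lowest adjusted p of the family. Nrp2 (ENSRNOG00000031232) stood at 288, 255, 225, 253 and 227 CPM in treated jj pups and at 242, 257, 244, 283 and 260.3 CPM in treated Nj pups, against 274, 302, 309.6, 326 and 341 CPM in untreated jj pups and 323, 309, 292, 338 and 317 CPM in untreated Nj pups. Treated and untreated Nj pups did not overlap, and in jj pups 1 treated library lay above 1 untreated library. The mean was 254 ± 20.7 CPM in treated and 313 ± 20.5 CPM in untreated pups (SD, n = 10 each), a log2 change of -0.31 (SE 0.046, edgeR adjusted p = 0.000422). The fall passed within each genotype, with log2 changes of -0.31 in jj (adjusted p = 0.0478) and -0.30 in Nj (adjusted p = 0.0153).

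Nrp1 (ENSRNOG00000010744) encodes the coreceptor for SEMA3A, which also binds VEGF on vessels. It had 271, 245, 233, 227 and 228 CPM in treated jj pups and 238, 253, 271, 186 and 259 CPM in treated Nj pups, against 285, 259, 260.5, 289 and 299 CPM in untreated jj pups and 304, 267, 282, 282 and 299 CPM in untreated Nj pups. The lowest value belonged to treated Nj pup 4, and in each genotype the highest treated pup reached the lowest untreated ones. Over both genotypes the mean was 241 ± 25.3 CPM in treated and 283 ± 16.2 CPM in untreated pups, a log2 change of -0.23 (SE 0.054, edgeR adjusted p = 0.00947). Neither genotype passed alone, with log2 changes of -0.21 in jj (adjusted p = 0.237) and -0.25 in Nj (adjusted p = 0.0666).

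**Figure D2:**
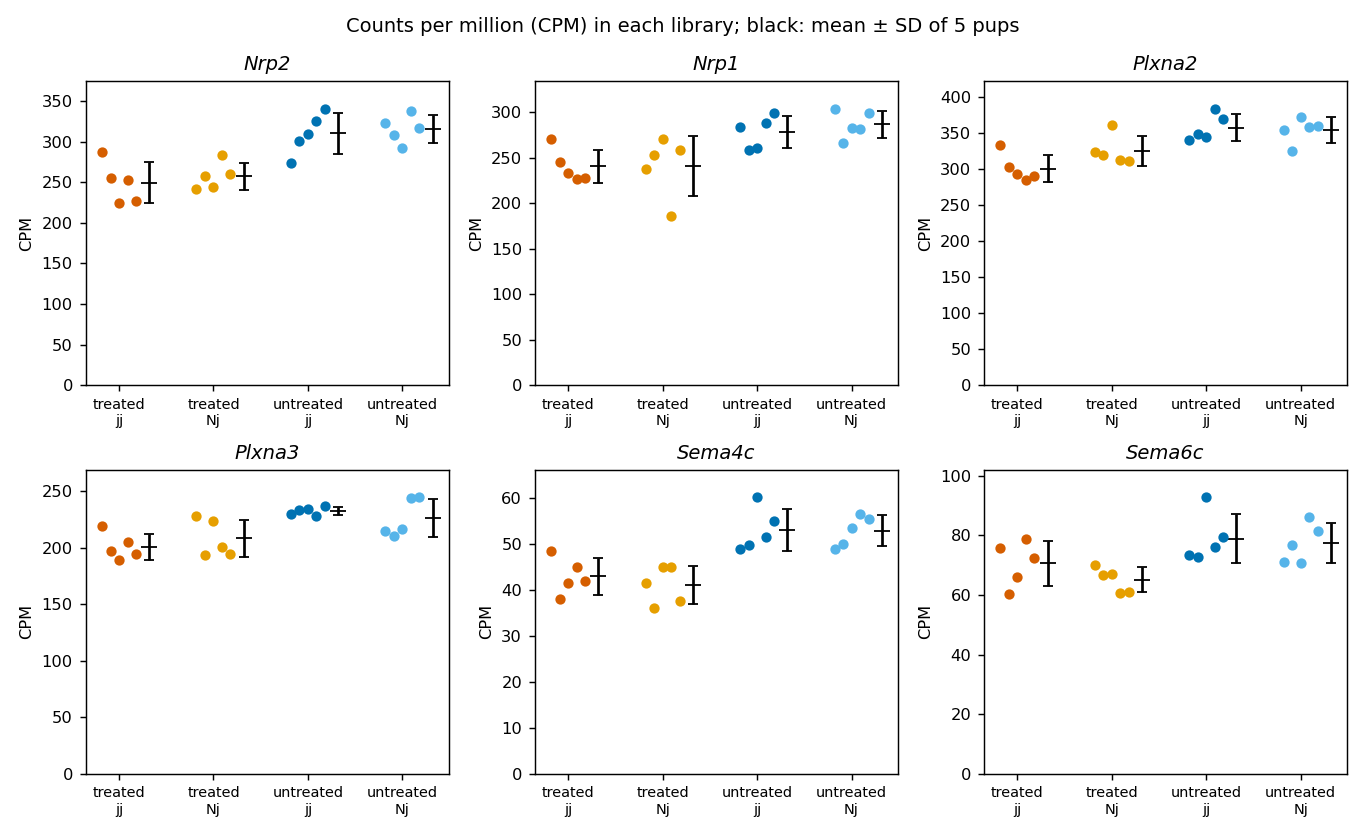
CPM of Nrp2, Nrp1, Plxna2, Plxna3, Sema4c and Sema6c in each library (dots), with the mean ± SD of 5 pups (black), for treated jj, treated Nj, untreated jj and untreated Nj pups on axes that start at 0. In each panel both treated means lie below both untreated means; for Sema4c all treated pups, at 36.0 to 48.4 CPM, lie below all untreated pups, at 48.8 to 60.1 CPM.

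The panels of single libraries show how small the shifts are beside the levels themselves: Plxna2 fell by 12.1% over both genotypes and its treated and untreated dots lie close together.

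Plexins A1, A2 and A3 fell and Plxna4 did not pass. PLXNA2, the receptor for SEMA6A and SEMA5A, and PLXNA3, the partner of NRP2, had the firmest calls. Plxna2 (ENSRNOG00000007324) had 332, 302, 292, 285 and 290.0 CPM in treated jj pups and 323, 319, 360.1, 312 and 310.3 CPM in treated Nj pups, against 340.2, 348, 344, 383 and 369 CPM in untreated jj pups and 354, 325, 372, 357 and 359.9 CPM in untreated Nj pups. In jj pups the groups did not overlap, and in Nj pups treated pup 3 lay among the untreated. The log2 change was -0.19 over both genotypes (SE 0.036, edgeR adjusted p = 0.00228), -0.25 in jj (SE 0.051, adjusted p = 0.0459) and -0.12 in Nj (adjusted p = 0.184).

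Plxna3 (ENSRNOG00000060464) had 219, 197, 189, 205 and 194 CPM in treated jj pups and 229, 193, 224, 201 and 195 CPM in treated Nj pups, against 230.3, 234, 235, 228 and 237 CPM in untreated jj pups and 215, 211, 217, 244 and 245 CPM in untreated Nj pups. All treated jj pups were below all untreated jj pups, whereas the Nj groups overlapped. Its log2 change over both genotypes was -0.17 (SE 0.038, edgeR adjusted p = 0.00846), and neither jj (-0.21, adjusted p = 0.0903) nor Nj (-0.12, adjusted p = 0.246) passed alone.

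Plxna1 (ENSRNOG00000017003), a receptor for SEMA3A with NRP1 and for SEMA6D, fell near the threshold. It had 463, 435, 428, 452 and 417 CPM in treated jj pups and 476, 437, 506, 428 and 408 CPM in treated Nj pups, against 463, 457, 491, 521 and 514 CPM in untreated jj pups and 467, 471, 449, 531 and 532 CPM in untreated Nj pups. Treated and untreated pups overlapped in both genotypes, and the log2 change was -0.14 over both (SE 0.042, edgeR adjusted p = 0.0394). Plxna4, which works with NRP1 for SEMA3A and with SEMA6A, averaged 137 ± 7.35 CPM in treated and 140.3 ± 11.6 CPM in untreated pups (log2 change -0.04, edgeR adjusted p = 0.606). Its values in single pups are given with the genotype comparisons.

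None of the 5 plexins of classes B, C and D passed. PLXNB1 and PLXNB2, receptors for class 4 semaphorins, had log2 changes of -0.10 (edgeR adjusted p = 0.126) and -0.16 (adjusted p = 0.2) for Plxnb1 and Plxnb2. Plxnb2 was among the 3 members called without the Ttr-rich libraries, all lower. In the libraries that remained it stood at 128 to 137 CPM in treated and 144 to 173 CPM in untreated pups. Plxnb3 averaged 10.2 ± 1.91 CPM in treated and 8.59 ± 2.26 CPM in untreated pups, a log2 change of 0.25 (adjusted p = 0.271). Plxnc1, whose protein binds SEMA7A, had a log2 change of -0.14 (adjusted p = 0.21), and Plxnd1, whose protein binds SEMA3E, one of -0.05 (adjusted p = 0.691).

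Among the ligands, classes 4 and 6 held all the calls. Sema4c (ENSRNOG00000016254), a ligand of plexin B2, had the greatest fall among the 10 called members. It had 48.4, 37.9, 41.4, 45.0 and 41.9 CPM in treated jj pups and 41.5, 36.0, 45.0, 45.0 and 37.6 CPM in treated Nj pups, against 48.9, 49.7, 60.1, 51.5 and 54.99 CPM in untreated jj pups and 48.8, 49.97, 53.4, 56.5 and 55.4 CPM in untreated Nj pups. All 10 treated pups lay below all 10 untreated pups, as for no other member, against 0.295% of all genes lower in this way. The log2 change was -0.33 over both genotypes (SE 0.052, edgeR adjusted p = 0.000579), -0.36 in Nj (SE 0.074, adjusted p = 0.00925) and -0.30 in jj (SE 0.074, adjusted p = 0.0896).

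Sema4b and Sema4g, of the same class of transmembrane ligands, fell less. Sema4b (ENSRNOG00000025167) had 25.8, 25.3, 22.5, 25.2 and 25.2 CPM in treated jj pups and 23.7, 22.8, 23.5, 26.2 and 21.9 CPM in treated Nj pups, against 27.8, 29.2, 26.4, 24.5 and 26.0 CPM in untreated jj pups and 24.2, 26.0, 27.1, 30.6 and 28.3 CPM in untreated Nj pups. The groups overlapped in both genotypes, and the log2 change over both was -0.16 (SE 0.048, edgeR adjusted p = 0.0394). Sema4g (ENSRNOG00000014650) had 91.2, 77.1, 82.4, 80.7 and 82.8 CPM in treated jj pups and 84.4, 76.1, 82.6, 83.7 and 77.0 CPM in treated Nj pups, against 91.2, 88.6, 83.8, 83.9 and 92.5 CPM in untreated jj pups and 87.8, 89.0, 86.1, 94.9 and 94.8 CPM in untreated Nj pups. Its groups were apart in Nj and overlapped in jj, with a log2 change of -0.13 over both genotypes (SE 0.034, edgeR adjusted p = 0.0217). The other 3 of the class did not pass: Sema4a, Sema4d, whose product is the ligand of plexin B1, and Sema4f had log2 changes between -0.04 and -0.02.

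Sema6a and Sema6c fell, and Sema6b and Sema6d did not pass. Sema6a (ENSRNOG00000004033), the ligand of plexins A2 and A4, had 91.8, 89.2, 98.9, 92.3 and 90.3 CPM in treated jj pups and 100.3, 91.1, 92.3, 109 and 86.0 CPM in treated Nj pups, against 101, 105, 104, 110.0 and 109.7 CPM in untreated jj pups and 91.3, 96.3, 108, 113 and 106 CPM in untreated Nj pups. The jj groups did not overlap and the Nj groups did, and over both the log2 change was -0.15 (SE 0.042, edgeR adjusted p = 0.0255). Sema6c (ENSRNOG00000021101) had 75.9, 60.2, 65.9, 78.7 and 72.4 CPM in treated jj pups and 70.2, 66.8, 67.1, 60.6 and 61.1 CPM in treated Nj pups, against 73.5, 72.7, 92.8, 76.2 and 79.3 CPM in untreated jj pups and 71.1, 76.9, 70.8, 86.3 and 81.5 CPM in untreated Nj pups. Here the Nj groups did not overlap and the jj groups did, with a log2 change of -0.20 over both (SE 0.054, edgeR adjusted p = 0.0188). Sema6d, a ligand of plexin A1, varied least of all members, with a mean coefficient of variation within groups of 3.45%, and averaged 129.9 ± 4.08 CPM in treated and 132 ± 5.36 CPM in untreated pups (log2 change -0.02, adjusted p = 0.654).

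The secreted class 3 ligands and classes 5 and 7 gave 0 calls in 10 members by edgeR and by DESeq2. Sema3a, the ligand of NRP1, averaged 12.9 ± 5.38 CPM in treated and 12.9 ± 1.91 CPM in untreated pups (log2 change -0.02, edgeR adjusted p = 0.963). Sema3f, the ligand of NRP2, averaged 14.1 ± 4.64 CPM in treated and 12.0 ± 5.28 CPM in untreated pups (log2 change 0.23, SE 0.24, adjusted p = 0.606). So neither Sema3a nor Sema3f passed where both neuropilins did. The standard error of Sema3f is wide enough that a change of the size seen in Nrp2 was not detectable. For Sema3a (SE 0.15) the same holds for a change of the size seen in Nrp1. Sema3b, Sema3c, Sema3d, Sema3e and Sema3g had log2 changes of 0.01, -0.01, 0.15, -0.12 and -0.11, all within 2 standard errors of 0. Sema5a and Sema5b stood at 0.03 and 0.00. Sema7a, a GPI-anchored ligand of plexin C1 and integrins, had the lowest p of these 10: 146 ± 14.7 CPM in treated and 135 ± 8.70 CPM in untreated pups, a log2 change of 0.12 (unadjusted p = 0.0362, adjusted p = 0.167).

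Promoters of the members that fell, receptors and ligands among them, were read from RefSeq's table for assembly GRCr8. By symbol, 23 of the 31 members matched it. Of the 10 that fell, Plxna1 and Sema4g had no match. Among the others, 3 have at least 200 bases of the 250 before their start outside the annotated gene. These bases are shown 5′ to 3′ on the gene's strand for a receptor and 2 ligands. Capitals mark matches on either strand to the GC box GGGCGG, the CCAAT box CCAAT, the E-box CACGTG or the cyclic AMP response element TGACGTCA, motifs that do not overlap one another here. Nrp1 lies at chr19:73256307-73256556 on the plus strand, Sema4c at chr9:46298042-46298248 on the minus strand and Sema6a at chr18:42358541-42358790 on the minus strand.
Nrp1: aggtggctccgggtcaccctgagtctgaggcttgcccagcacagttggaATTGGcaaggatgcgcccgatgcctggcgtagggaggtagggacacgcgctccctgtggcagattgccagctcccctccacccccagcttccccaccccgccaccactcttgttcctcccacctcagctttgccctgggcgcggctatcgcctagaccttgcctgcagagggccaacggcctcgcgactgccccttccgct
Sema4c: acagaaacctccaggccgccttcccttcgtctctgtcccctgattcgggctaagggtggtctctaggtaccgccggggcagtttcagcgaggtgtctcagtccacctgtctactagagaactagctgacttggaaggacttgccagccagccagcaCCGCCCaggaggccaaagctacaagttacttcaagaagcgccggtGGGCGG
Sema6a: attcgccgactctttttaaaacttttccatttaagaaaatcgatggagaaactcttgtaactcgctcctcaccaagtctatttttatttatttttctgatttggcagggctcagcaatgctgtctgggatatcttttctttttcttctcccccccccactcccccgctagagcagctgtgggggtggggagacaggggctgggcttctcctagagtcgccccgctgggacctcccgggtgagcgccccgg
Nrp1 holds 1 CCAAT box, Sema4c 2 GC boxes, and Sema6a none of these letters, so the 3 share no motif of those searched. Over the 250 bases before the start, 13 of 23 members (56.5%) hold a GC box, against 30.5% of 33469 windows and 38.9% of the 21851 windows of protein-coding genes. The windows of members also hold more G and C, with a median of 60% against 54% for protein-coding genes. A CCAAT box stands in 6 of 23 members (26.1%, against 35% of protein-coding genes), an E-box in 2 (8.7%, against 6.16%) and a cyclic AMP response element in 0 (against 1.89%). These matches describe the letters only and do not show that a factor binds.

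The light comparison was also made within each genotype. In jj pups 2 of 31 members fell, Nrp2 and Plxna2, against 0.124% lower among all genes (25 genes called in both directions). By unadjusted p under 0.05, 8 members were lower and 0 higher, against 7.31% of all genes lower, and DESeq2 called 4 (1.25% lower among all genes). The CPM of treated and untreated pups did not overlap for 4 members (Plxna2, Plxna3, Sema4c and Sema6a), all lower, against 1.69% of all genes. The jj calls lie close to the threshold: 0 members were called without untreated jj pup 2, 4 or 5 or treated jj pup 2, 3, 4 or 5, and 1 without untreated jj pup 1 or 3. In Nj pups 2 members fell, Sema4c and Nrp2, against 2.51% lower among all genes, and DESeq2 called 5 (4.45% lower among all genes). By unadjusted p, 10 members were lower and 0 higher, against 9.89% lower among all genes. Treated and untreated Nj pups did not overlap for 4 members (Nrp2, Sema4c, Sema4g and Sema6c), all lower, against 3.39% of all genes. Leaving out untreated Nj pup 4 left Sema4c alone, with adjusted p = 0.0579 for Nrp2, and leaving out untreated Nj pup 1 gave 4. Without the Ttr-rich libraries 0 members passed in either genotype, with log2 changes in jj of -0.28 for Nrp2 and -0.21 for Plxna2, and in Nj of -0.32 for Nrp2 and -0.26 for Sema4c.

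The comparison in jj pups and that in Nj pups share no library. Both log2 changes were below 0 for 19 of 31 members (61.3%), against 34.9% of all genes, both were above 0 for 5, and 7 members differed in sign. Across members, which are not independent replicates, Pearson's r was 0.599 and Spearman's rho 0.571, against 0.291 and 0.455 across all genes. The prefix J18 is common to both treated groups. The test of the difference itself, the interaction of genotype and light, called 0 members by edgeR and by DESeq2, and 0 at an unadjusted p under 0.05, against 3.41% of all genes at that unadjusted p and 0 genes by edgeR's adjusted p.

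**Figure D3:**
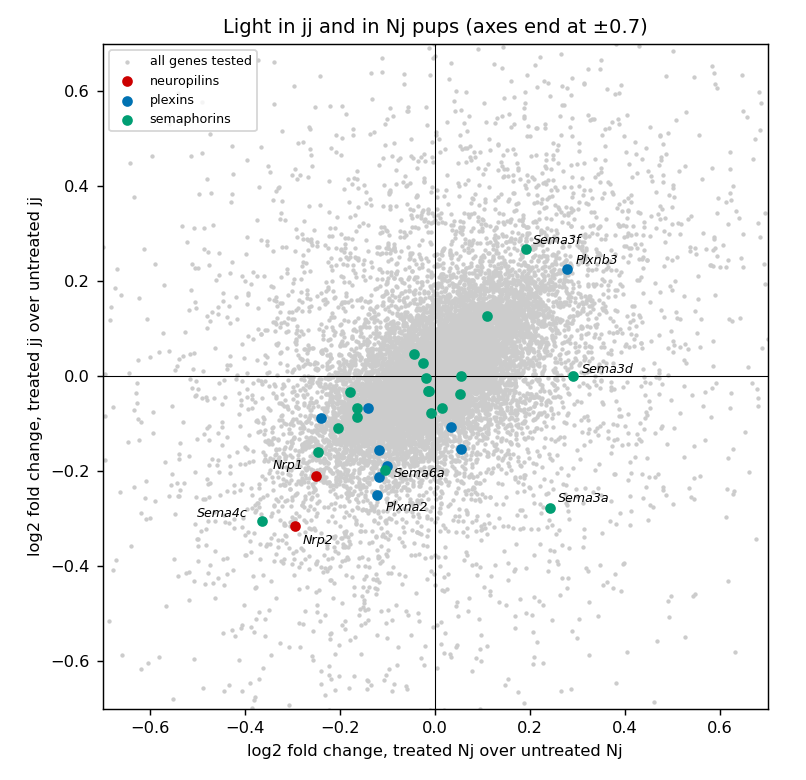
Log2 fold change of light in Nj pups (x axis) and in jj pups (y axis) for the neuropilins (red), plexins (blue) and semaphorins (green) over all genes tested (grey), on axes that end at 0.7 either way. Nrp1, Nrp2, Sema4c and Plxna2 lie in the lower left, below 0 in both genotypes, Sema3a lies at opposite signs, and Sema3f and Plxnb3 lie in the upper right.

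In the plot of the 2 genotypes against each other, Sema3a stands apart from the diagonal: its log2 change was 0.24 in Nj (SE 0.22) and -0.28 in jj (SE 0.22), and treated Nj pup 4 holds the high value behind the first.

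No member passed the test between genotypes. Under light, jj against Nj gave 0 calls by edgeR and by DESeq2, which called 0% and 0.00878% of all genes; 2 members had an unadjusted p under 0.05, against 6.62% of all genes. PLXNB1 is the receptor of SEMA4D, and Plxnb1 (ENSRNOG00000029510) had 93.2, 94.6, 88.9, 96.1 and 92.5 CPM in treated jj pups against 86.1, 76.6, 88.9, 86.7 and 86.0 CPM in treated Nj pups. The ranges met at 88.9 CPM without overlap, which 0.596% of all genes did in this direction. Treated Nj pup 2 was low, and the log2 difference was 0.13 (SE 0.060, edgeR adjusted p = 0.724). Plxna2 averaged 300.3 ± 19.04 CPM in treated jj and 325 ± 20.4 CPM in treated Nj pups (SD, n = 5 each), a log2 difference of -0.11 (SE 0.051, edgeR adjusted p = 0.724). These treated groups share a prefix, so this is the one comparison that prefix does not touch.

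Without light, jj against Nj also gave 0 calls by edgeR and by DESeq2 (0% and 0.00439% of all genes), with 1 member at an unadjusted p under 0.05 against 6.36% of all genes. That member was Plxna4 (ENSRNOG00000013072). It had 133, 146, 151, 162 and 145 CPM in untreated jj pups against 123, 130.1, 131, 145 and 138 CPM in untreated Nj pups. The ranges overlapped, and the log2 difference was 0.14 (SE 0.055, edgeR adjusted p = 0.775). In treated pups Plxna4 had 148, 131, 131, 137 and 137 CPM in jj and 139, 143, 145, 127 and 128 CPM in Nj, where the means were within 1 SD of each other. Its interaction had the lowest p of the members, a log2 value of -0.14 (SE 0.078, adjusted p = 1.00), followed by Plxna2 at -0.13 (SE 0.072, adjusted p = 1.00).

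The next member by p without light was Sema3b, a secreted ligand that binds NRP2, with 10.1, 13.6, 17.5, 12.8 and 11.3 CPM in untreated jj pups against 9.74, 11.0, 13.8, 12.0 and 11.0 CPM in untreated Nj pups. The ranges overlapped and untreated jj pup 3 held the high value (log2 difference 0.18, SE 0.12, edgeR adjusted p = 0.776). Averaged over light, 0 members passed in jj against Nj by either tool, and 2 had an unadjusted p under 0.05 against 11.2% of all genes: Plxnb1 and Sema6b. Plxnb1 averaged 95.3 ± 6.66 CPM in jj and 89.3 ± 7.53 CPM in Nj pups (SD, n = 10 each; log2 difference 0.10, edgeR adjusted p = 0.431). Sema6b averaged 158 ± 8.73 CPM in jj and 148 ± 11.7 CPM in Nj pups, with a log2 difference of 0.09 (edgeR adjusted p = 0.435). Single Sema6b values were 168, 154, 151, 168 and 158 CPM in treated jj, 158, 145, 148, 145 and 139 CPM in treated Nj, 146, 156, 174, 152 and 156 CPM in untreated jj and 129, 157, 137, 166 and 159 CPM in untreated Nj pups, with overlap between jj and Nj.

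**Figure D4:**
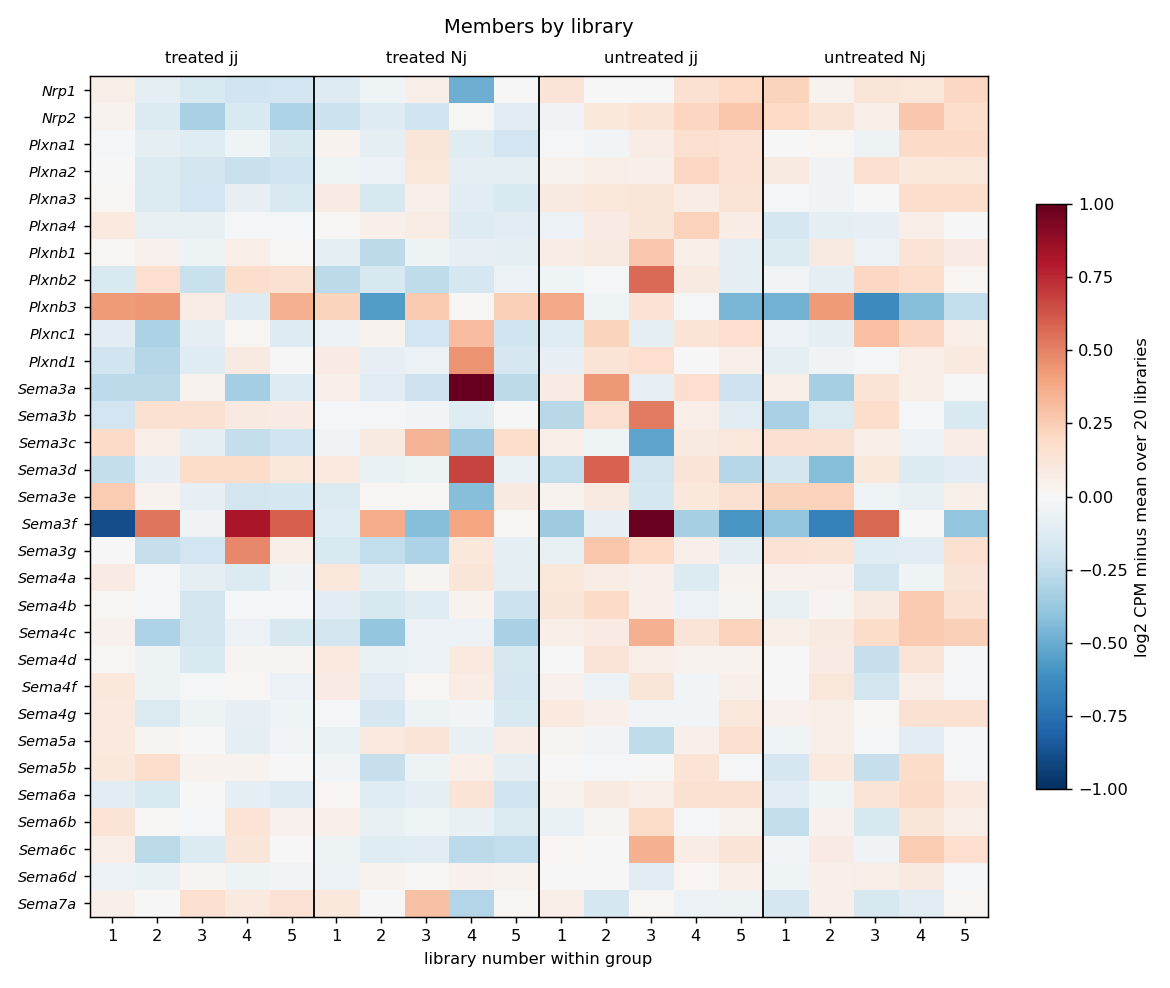
Log2 CPM of each of the 31 members (rows, by role) in each library (columns, numbered within treated jj, treated Nj, untreated jj and untreated Nj) relative to the gene's mean over the 20 libraries; red is above and blue below the mean, and colours end at a log2 difference of 1, which Sema3a in treated Nj pup 4 exceeds. Rows Nrp1 to Plxna3 and Sema4c are bluer in the treated columns, while Sema3f varies from library to library within every group.

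The map of members by library also shows libraries that often held the extreme value of a member. Treated Nj pup 4 had the highest value of all 20 libraries for Plxnc1, Plxnd1, Sema3a and Sema3d and the lowest for Nrp1, Sema3e and Sema7a. Sema3a, for example, had 13.0, 11.7, 10.9, 27.9 and 10.4 CPM in treated Nj pups. Untreated jj pup 3, which had the highest Ttr, was highest for 8 members, among them Plxnb1, Plxnb2, Sema3b, Sema3f, Sema4c and Sema6c, and lowest for Sema3c, Sema5a and Sema6d. Untreated Nj pup 4 was highest for 6 members, the called Sema4b, Sema4g and Sema6a among them, and untreated Nj pup 3 was lowest for 5.

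Sema3f varied most within groups, with a mean coefficient of variation of 37.9%. It had 6.62, 17.8, 11.9, 21.6 and 18.6 CPM in treated jj pups and 11.3, 15.8, 9.11, 16.1 and 12.4 CPM in treated Nj pups, against 9.59, 11.6, 24.4, 9.75 and 8.20 CPM in untreated jj pups and 9.33, 7.68, 18.3, 12.3 and 9.33 CPM in untreated Nj pups. High values occurred in every group, mostly in libraries rich in Ttr: the 7 Ttr-rich libraries held 12.4 to 24.4 CPM (median 18.3) and the other 13 held 6.62 to 16.1 CPM (median 9.59). Plxnb2, with a median of 172 CPM in Ttr-rich and 144 CPM in other libraries, and Sema3b, with 13.0 and 11.3 CPM, went the same way. Each member called lower with light over both genotypes had the lower median in Ttr-rich libraries, with treated and untreated pups pooled. Medians in Ttr-rich and other libraries were 257 and 302 CPM for Nrp2, 310 and 348 CPM for Plxna2, and 41.9 and 48.9 CPM for Sema4c. Ttr-rich libraries came mostly from treated pups, so these pooled medians also carry the difference between treated and untreated pups. Ttr-rich untreated jj pup 3 and untreated Nj pup 3 had 309.6 and 292 CPM of Nrp2, where other untreated pups had 274 to 341. They had 344 and 372 CPM of Plxna2 (others 325 to 383) and 60.1 and 53.4 CPM of Sema4c (others 48.8 to 56.5). What choroid plexus RNA contributes to these falls was not tested. What choroid plexus RNA contributes to the level of Sema3f was not tested, and its comparison between groups rests on libraries that differ in it.

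**Figure D5:**
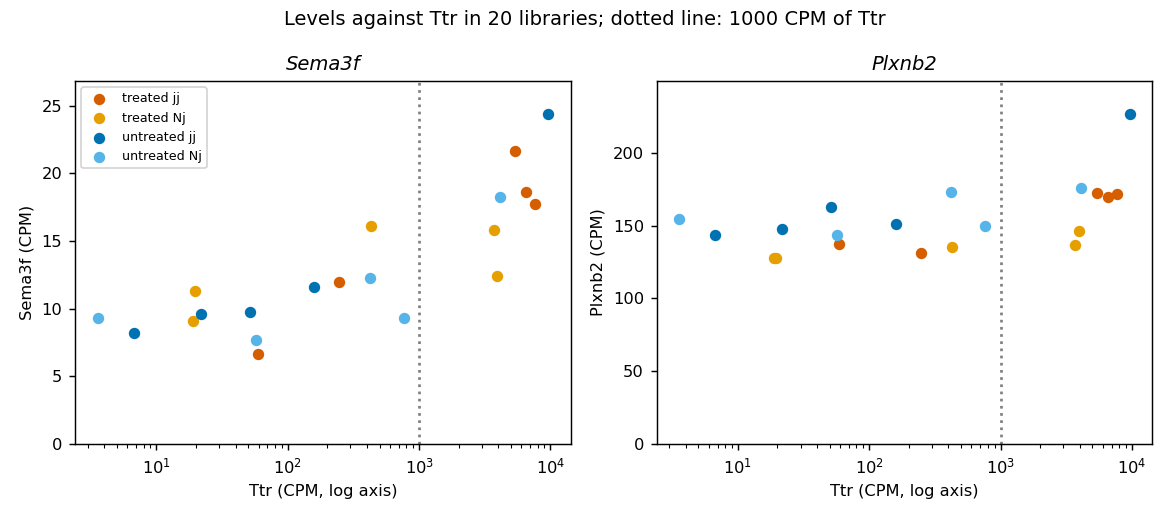
CPM of Sema3f (left) and Plxnb2 (right) against CPM of Ttr on a log axis in the 20 libraries, coloured as treated jj, treated Nj, untreated jj and untreated Nj; the dotted line marks 1000 CPM of Ttr. The 7 libraries right of the line hold 12.4 to 24.4 CPM of Sema3f, and untreated jj pup 3 at the far right is highest in both panels.

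The plot against Ttr places all 4 groups on both sides of the line, with 3 treated jj, 2 treated Nj, 1 untreated jj and 1 untreated Nj library to its right.

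Genes that act with or below these receptors were followed in a list of 57, of which 55 were tested. Over both genotypes 10 were lower and 3 higher with light, against 5.74% lower and 4.35% higher among all genes, and the median log2 change was -0.03. Mical2 rose: MICAL proteins oxidise actin below plexin A, and Mical2 had 139 ± 7.04 CPM in treated and 113 ± 7.00 CPM in untreated pups (log2 change 0.30, edgeR adjusted p = 5.14e-05), passing also in jj (0.26, adjusted p = 0.0418) and in Nj (0.35, adjusted p = 0.00126). Its relatives went the other way: Mical3, named again below, was called lower over both genotypes. Mical1 was not called, with log2 changes of -0.19 in jj and -0.16 in Nj. Crmp1, of the collapsin response mediators that carry the SEMA3A signal, fell to 1594 ± 95.9 CPM in treated pups against 1853 ± 80.6 CPM in untreated pups (log2 change -0.22, adjusted p = 0.000583), and its relatives Dpysl2, Dpysl3 and Dpysl5 fell by 0.16, 0.19 and 0.26 on the log2 scale. L1cam, an adhesion molecule that joins NRP1 in the SEMA3A receptor, fell by 0.15 (adjusted p = 0.00402), and the axonal adhesion gene Cntn2 fell by 0.32 (adjusted p = 0.0011). Vcan, a matrix proteoglycan, fell by 0.27 (adjusted p = 0.00228). The other calls, named with Dpysl2 and Dpysl5 after their values were seen, were Farp1, Kdr and Mical3 (lower) and Rnd1 and Rras2 (higher); Dpysl4 had a log2 change of -0.07 and did not pass (adjusted p = 0.212). In Nj pups 4 of the 55 fell (Crmp1, Vcan, L1cam and Cntn2) and 1 rose, against 2.51% lower and 1.49% higher among all genes. In jj pups 0 fell and 1 rose, against 0.124% and 0.0393%, and genotype and interaction gave 0 calls by edgeR. Without the Ttr-rich libraries 2 were lower and 2 higher, where 2.74% of all genes were called and 1.27% were lower.

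Markers of other cell states moved alongside. Of 11 markers of immature neurons, 7 fell with light over both genotypes (median log2 change -0.23), among them Dcx, Sox11, Tubb3 and Draxin, against 5.74% lower among all genes. Without the Ttr-rich libraries 4 of the 11 fell, against 1.27% of all genes. Dpysl3 is on this list and the one above. The summed level of the 11 was 9608 to 10721 CPM in treated jj and 9701 to 11281 CPM in treated Nj pups, against 10182 to 12200 CPM in untreated jj and 11398 to 12485 CPM in untreated Nj pups. The part of these markers in the 10 members that fell was not tested. Choroid plexus markers gave 0 calls of 11, with a median log2 change of 0.71 and summed levels of 85.6 to 8288 CPM in treated jj, 40.5 to 4299 CPM in treated Nj, 25.8 to 10348 CPM in untreated jj and 24.7 to 4501 CPM in untreated Nj pups. Meningeal markers gave 0 calls of 10, with 7 below 0 and a median log2 change of -0.23, and -0.53 with 9 below 0 without the Ttr-rich libraries. Oligodendrocyte precursor markers gave 0 of 6 (median -0.02). Endothelial markers, of interest since NRP1 and PLXND1 also serve vessels, gave 2 lower of 9, Kdr and Esam. For the next lists the shares among all genes are 4.35% higher and 5.74% lower. Microglial markers gave 3 higher of 10, myelin markers 2 higher of 6, and astrocyte markers 3 higher and 1 lower of 8. Markers of excitatory neurons gave 2 higher of 10, and those of interneurons and Cajal-Retzius cells 2 higher and 3 lower of 8, with Reln among the lower. Without the Ttr-rich libraries, where 2.74% of all genes were called, endothelial and excitatory neuron markers gave 0 calls. Microglial markers then gave 1 higher of 10, myelin markers 1 higher of 7 and astrocyte markers 2 higher of 8. Those of interneurons and Cajal-Retzius cells gave 2 higher and 1 lower of 8. No listed marker found in the table was at 0 in every library.

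The 10 calls over both genotypes were not equally firm. Nrp1, Nrp2, Plxna2, Plxna3, Sema4c and Sema6c passed in all 20 fits that left out 1 library, while Sema4g passed in 17, Sema6a in 12, Plxna1 in 10 and Sema4b in 5, and the count fell to 6 without untreated Nj pup 4, untreated Nj pup 5 or treated Nj pup 5. Without the 7 Ttr-rich libraries Nrp2 (log2 change -0.30, edgeR adjusted p = 0.0387) and Sema4c (-0.23, adjusted p = 0.0267) passed, and the other 8 kept values below 0 but did not pass, such as Nrp1 (-0.24, adjusted p = 0.131), Plxna2 (-0.14, adjusted p = 0.0867), Plxna3 (-0.13, adjusted p = 0.141) and Sema6c (-0.17, adjusted p = 0.0676). By whole gene spans, introns included and on either strand, RefSeq lists another gene that overlaps 16 of the 31 members. Among them are 6 of the 10 that fell (both neuropilins, Plxna2, Plxna3, Sema6a and Sema6c). No source at hand says whether the counting used strand, and whether any counted reads could belong to both genes of a pair was not tested.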

How the data were processed

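PolyA RNA of 20 hippocampal samples was analysed as 4 groups of 5 pups, from the submitters' labels. The authors deposited raw read counts per rat Ensembl gene, with no normalization; per the submitters' processing notes, FastQC, TopHat2 2.0.13, Subread and edgeR were used. The notes name a mouse build beside rat identifiers, and no source at hand gives the rat build, so coordinates come only from RefSeq GRCr8, matched by symbol.

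Genes were filtered with filterByExpr, scaled by TMM and fitted with 1 mean per group over all 20 libraries by edgeR 4.0.16 (robust quasi-likelihood, limma 3.58.1, R 4.3.3). Tests were two-sided, with Benjamini-Hochberg adjustment over 15272 genes for each of 7 contrasts and a threshold of 0.05. CPM use the TMM-scaled totals. DESeq2 1.42.0 was the second tool. Other alternatives were other scalings, filters, dispersion estimates and sets of libraries. The code was tested on simulated data for the comparisons between single groups, with planted changes larger than those found in the members. The contrasts averaged over genotype or light and the interaction were not simulated. Totals of 16882652 to 27112749 counts put at least 199 counts on average behind each member. No pair of libraries of the same group agreed within sampling noise.

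The members and lists were chosen with earlier results of these data known. Named in full were members past the threshold in any contrast and, where none passed, the 2 with the lowest p.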

Additional observations from a re-analysis of the deposited data

Results flagged for a closer look

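In 124 groups of 5 pups (31 members in 4 groups), 11 held a library whose gap to the nearest other exceeded Dixon's 95% limit of 0.71 of the range; chance gives about 1 in 20. Of treated jj pups, Sema3b was low in pup 1 (10.7 CPM, others 12.9 to 13.6) and Sema4b in pup 3 (22.5 CPM, others 25.2 to 25.8). Of treated Nj pups, pup 4 was high for Sema3a (27.9 CPM, others 10.4 to 13.0) and Sema3d (14.9 CPM, others 8.94 to 9.99), pup 3 was high for Plxna2 (360.1 CPM, others 310.3 to 323) and pup 2 low for Plxnb1 (76.6 CPM, others 86.0 to 88.9). Of untreated jj pups, pup 3, the library with the highest Ttr, was high for Plxnb2 (227 CPM, others 144 to 163) and Sema3f (24.4 CPM, others 8.20 to 11.6) and low for Sema3c (169 CPM, others 236 to 263), and pup 4 was high for Sema5b (18.7 CPM, others 16.7 to 17.1). Of untreated Nj pups, Plxnb3 was high in pup 2 (12.3 CPM, others 5.89 to 7.74).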

How the results depend on the processing

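No value of the 22 named member results changed sign in 518 alternative values. Of these values, 447 stayed on their side of the threshold and 71 were no longer past it. The 447 include every alternative value of the members named without a call, which had no call to lose. For light over both genotypes, 10 members were called, 3 without the Ttr-rich libraries and 6 to 11 with 1 library left out. For light in Nj pups, 2 were called, 5 by DESeq2, 5 with those groups alone, 0 without the Ttr-rich libraries and 1 to 4 with 1 library left out. For light in jj pups, 2 were called, 1 with size factors of DESeq2, 1 with no count filter, 4 by DESeq2, 0 with those groups alone, 0 without the Ttr-rich libraries and 0 to 3 with 1 library left out. The cause was not tested; fewer libraries leave less power by construction. The genotype comparisons and the interaction gave 0 members throughout. Over all genes, light over both genotypes gave 1541 calls, or 424 without the Ttr-rich libraries and 1020 to 1697 with 1 library left out. Light in Nj gave 611, or 1009 by DESeq2, 112 without the Ttr-rich libraries and 152 to 651 with 1 library left out. Light in jj gave 25, or 271 by DESeq2, 3 with those groups alone, 0 without the Ttr-rich libraries and 0 to 43 with 1 library left out. The comparisons of jj with Nj gave 0 genes by edgeR, 0 to 1 with 1 library left out in either light condition, and 1 (untreated) or 2 (treated) by DESeq2. No paired analysis was possible because the labels give no replicate number that links pups of different groups. The number of pups and the spread of a gene limit what can be seen. For Sema3f, the member that varied most within groups, the standard error over both genotypes was wide. At that error, changes of the size found in Nrp2 were not detectable.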
